A study of Mus musculus with 10 samples.

Results

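The genes that mark the cells of blood vessels, 26 of the endothelium and 12 of the mural cells that wrap it, were followed in newborn mouse hindbrain and upper spinal cord with and without the transcription factor Nkx2.2. These 38 members, of 18193 genes that the arrays measure, were taken as every probe set whose gene symbol field on the platform includes a listed symbol. That gave 62 of the 45037 probe sets that are no controls, 41 for the endothelium and 21 for the mural cells. All 38 members had at least 1 probe set. The Ly6c1 probe set also names Ly6c2, a near-identical neighbour, and is reported as shared by both.

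The wild-type group held replicates 14, 15, 16, 18 and 21 and the Nkx2.2-/- group replicates 11, 12, 22, 29 and 43, 5 mice each, all of strain C57BL/6. The series' design calls the controls littermates, without saying which mice share a litter. The labels give no further detail of the mutant allele. All were 1.5 to 2 days old and were perfused with saline before the brains were frozen. RNA came from pons, medulla and rostral spinal cord cut out of 20 µm sagittal sections, and each mouse gave 1 array. The question of the comparison was which transcripts differ when Nkx2.2 is absent. The values are log2 RMA values, so a difference of 1 is a doubling. Values of single mice are given below in the order of replicates just listed, and a log2 difference is Nkx2.2-/- minus wild type.

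As background, brain endothelium forms the blood-brain barrier: tight junctions seal the cells to each other, transporters carry nutrients in and drugs out, and Wnt ligands from neural cells switch this programme on before birth. Vessels grow through VEGF receptors and mature through the Tie receptors. Pericytes sit in the wall of capillaries, and smooth muscle cells with a contractile apparatus surround arterioles and the vessels of the meninges. Nkx2.2 is known for its roles in ventral neural progenitors and the oligodendrocyte lineage.

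The following measures were read beside the labels. The single Nkx2-2 probe set lay between 6.42 and 6.88 in wild type and between 4.24 and 4.73 in Nkx2.2-/- (log2 difference -2.05, SE 0.111, limma Benjamini-Hochberg adjusted p = 7.2e-05). Permuting the genotypes over the mice exactly, two-sided, gave p = 0.00794, the smallest that 5 and 5 mice allow. Whether this probe set lies in the deleted part of the gene is not known here. Neuronal markers were bright on every array (list mean 10.06 to 10.47 over 7 genes), and 5 forebrain markers were near the middle of the array (5.12 to 5.36). The 7 Hox genes of hindbrain and cord averaged 6.50, 6.34, 6.52, 5.78 and 6.69 in wild type and 5.91, 6.56, 6.81, 7.26 and 6.94 in Nkx2.2-/-. Hoxc8, one of the more caudal of them, stood at 6.17 to 7.22 in mutants 22, 29 and 43 and at 4.53 to 4.84 in the other 7 mice, wild type and mutant (log2 difference 1.33, limma unadjusted p = 0.0138, adjusted p = 0.9997). Hoxb9 differed by 0.39 (limma unadjusted p = 0.0651, adjusted p = 0.9997). Both were higher in these 3 mutants than in every wild-type mouse, and the part of the amount of cord in the members' values was not tested. Array medians ran from 5.07 to 5.12. The 5 prime Gapdh control was dim against the 3 prime one on 2 arrays, with a 3 prime minus 5 prime difference of 2.13 in wild-type replicate 14 and 3.78 in mutant 43. The remaining 8 had differences from -0.32 to 0.13. Results are therefore also given without these 2 arrays where that matters. RMA makes no detection call. By the brightest probe set, 34 of the 38 members had a mean at or above the median of all probe sets, 5.09. Pecam1, Tie1, Myh11 and Cnn1 fell short of it, so 2 of the 4 contractile genes were dim, and of the other 34 members only Pecam1 and Tie1.

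No member differed between the genotypes by the test over all probe sets. Of the 62 member probe sets, 0 rose and 0 fell (limma, Benjamini-Hochberg over 45037 probe sets, adjusted p at least 0.9997 for each), where 23 of all probe sets fell, 0 rose and 0.0511% were called. At an unadjusted limma p under 0.05 there were 3 member probe sets, 2 of Rgs5 that were lower and 1 of Slco1a4 that was higher. That is 4.84% of the members' probe sets, where 3.43% of all probe sets had such a p. Leaving out 1 array moved the count to 7 of 62 without wild-type replicate 14, and to 5 without wild-type replicate 16 or without mutant 12, where 1860, 1857 and 1263 of all probe sets had such a p. It was 6 without both wild-type replicate 14 and mutant 43, where 1901 of all probe sets had such a p. With the adult globin covariate it was 7, where 1878 of all probe sets did. The groups were separated, with every mouse of one genotype above every mouse of the other, in 0 of the 62, against 0.757% of all probe sets. In bulk tissue, fewer vascular cells and less RNA per cell cannot be told apart.

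Each gene was next read by its brightest probe set over all 10 arrays. The log2 differences of the 26 endothelial genes ran from -0.19 (Cdh5) to 0.23 (Slco1c1) with a median of -0.02, and those of the 12 mural genes from -0.39 (Rgs5) to 0.01 (Mcam) with a median of -0.04. The median over all 18193 genes was -0.0042. By sign, 18 of 26 endothelial and 10 of 12 mural genes were lower in Nkx2.2-/-, where 53.0% of all genes were. After quantile normalization the counts were 11 of 26 and 9 of 12, with 45.5% of all genes lower, so the endothelial direction depends on the scaling. Counted over all probe sets in the main model, 26 of 41 endothelial and 15 of 21 mural ones were lower, where 49.2% of all probe sets were. Of the 15 members with several probe sets, 8 had all of them of 1 sign. The 95% interval of the difference lay within 0.5 on the log2 scale, or 1.41-fold, on either side of 0 for 34 of the 38 members, and for 96.3% of all genes. The 4 exceptions were Slco1c1, Rgs5, Vtn and Acta2, and for all 38 it lay within 1, or 2-fold.

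**Figure D1:**
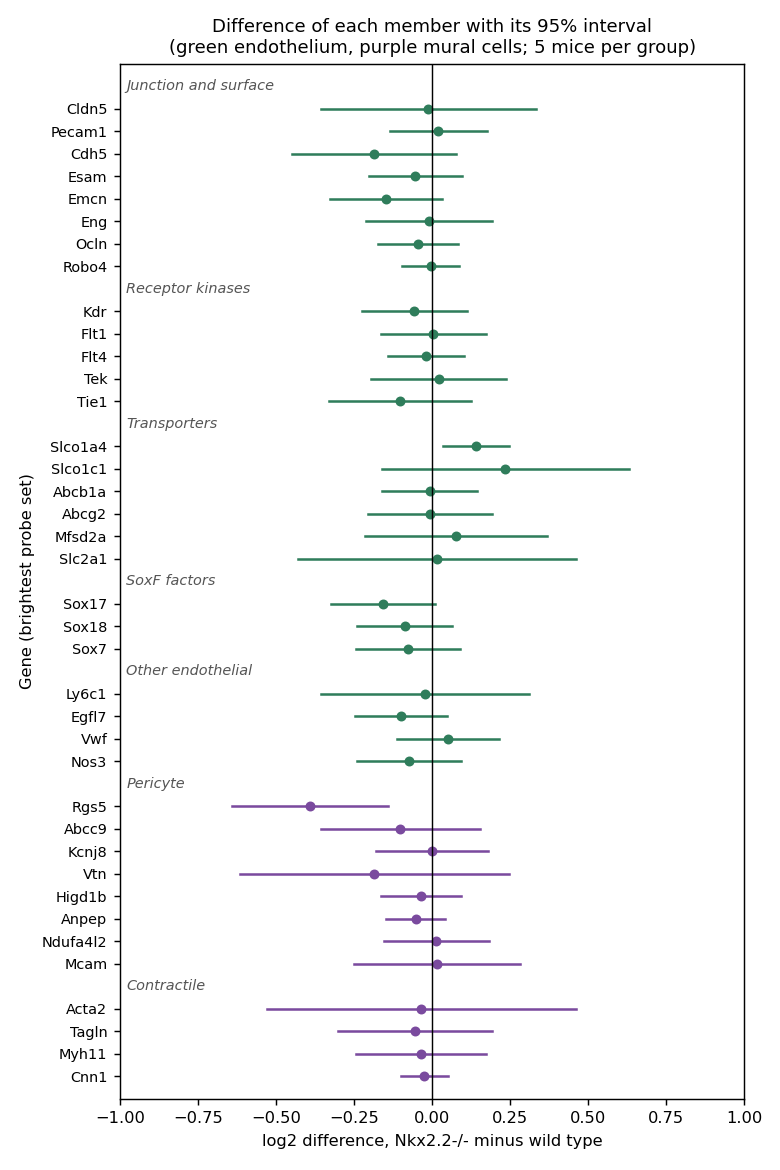
Log2 difference between Nkx2.2-/- and wild-type mice (x axis) for each of the 38 members by its brightest probe set (y axis, grouped by role), with bars for the 95% interval from limma, in green for endothelium and purple for mural cells. Most points lie within 0.2 of 0, and Rgs5 at -0.39 and Slco1a4 at 0.14 are the members whose interval leaves out 0.

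Averaged over the 26 endothelial genes, the mice gave 6.04, 6.10, 5.94, 6.12 and 6.04 in wild type and 6.05, 6.03, 5.95, 6.08 and 6.01 in Nkx2.2-/-. The groups interleaved, with the highest value in wild-type replicate 18 and the lowest in wild-type replicate 16, and group means were 6.05 ± 0.07 and 6.02 ± 0.0472 (SD, n = 5 per genotype). The 12 mural genes averaged 5.88, 5.90, 5.74, 5.67 and 5.54 in wild type and 5.56, 5.76, 5.66, 5.75 and 5.63 in Nkx2.2-/-. Wild-type replicate 15 was highest and wild-type replicate 21 lowest, and all 5 Nkx2.2-/- mice lay between them. The mural averages by group were 5.75 ± 0.147 and 5.67 ± 0.0835 (SD, n = 5 per genotype), so the wild-type mice were spread more widely than the mutants. The range over the 10 mice was 0.18 for the endothelial mean and 0.35 for the mural mean. The mean of all genes ranged over 0.09. RMA draws arrays to a common distribution, which holds that mean nearly fixed, and means of fewer genes tend to vary more. These ranges therefore cannot show whether the members vary more between mice than other genes do.

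**Figure D2:**
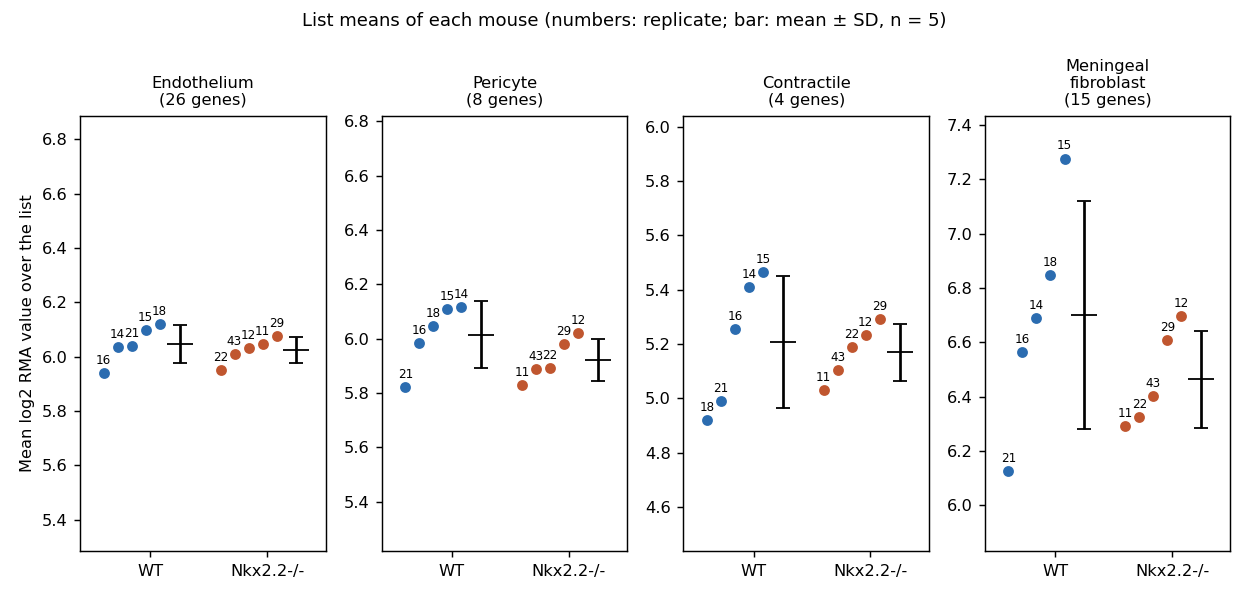
Mean log2 RMA value of each mouse (y axis) over the endothelial genes, the pericyte genes, the contractile genes and the meningeal fibroblast markers, for wild type and Nkx2.2-/- (x axis); numbers are replicates, and the bar is the mean ± SD of 5 mice. The panels span equal log2 ranges, and in the meningeal panel wild-type replicate 15 is highest at 7.28 and wild-type replicate 21 lowest at 6.13, as in the means over all 12 mural genes. Wild-type replicate 18 is next to highest in the meningeal panel, at 6.85, and lowest in the contractile panel, at 4.92.

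Among the 8 endothelial junction and surface genes, 7 had a lower sign and none passed the test. Cldn5, the claudin that seals the barrier's tight junctions, was at 7.08, 7.69, 7.42, 7.56 and 7.24 in wild type and 7.61, 7.62, 7.36, 7.48 and 6.85 in Nkx2.2-/-. Its lowest mouse in each group was the one with low 5 prime Gapdh signal, replicates 14 and 43, and both groups otherwise overlapped. Group means were 7.40 ± 0.245 and 7.38 ± 0.316 (SD, n = 5 per genotype), a log2 difference of -0.01 (95% interval -0.36 to 0.33), which was 0.04 without those 2 arrays. Ocln, occludin, the other tight junction protein listed, had a difference of -0.05 (95% interval -0.17 to 0.08). Esam, an adhesion molecule of endothelial junctions, was at -0.05 (-0.20 to 0.09).

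Cdh5, VE-cadherin of the adherens junctions, gave 5.82, 6.30, 5.63, 6.02 and 5.66 in wild type and 5.74, 5.82, 5.63, 5.77 and 5.55 in Nkx2.2-/-. Wild-type replicate 15 stood highest, and the Nkx2.2-/- values fell inside the wild-type range except for replicate 43 just under it. The difference was -0.19 (SE 0.119, limma unadjusted p = 0.147, adjusted p = 0.9997), -0.08 without wild-type replicate 15, and a dimmer Cdh5 probe set was at 0.05. Emcn, endomucin, a sialoglycoprotein of capillary and venous endothelium, was at 5.45, 5.70, 5.51, 5.83 and 5.82 in wild type and 5.64, 5.49, 5.48, 5.55 and 5.42 in Nkx2.2-/-. The groups overlapped, and replicates 18 and 21 of wild type were the 2 highest mice. Its difference was -0.15 (SE 0.081, limma unadjusted p = 0.0968, adjusted p = 0.9997). Pecam1, the adhesion molecule CD31, was at 5.10, 4.93, 4.83, 4.91 and 4.79 in wild type and 4.91, 4.84, 4.88, 4.89 and 5.14 in Nkx2.2-/-, most of them below the median of all probe sets, with a difference of 0.02 (95% interval -0.14 to 0.18). Its highest mice were again replicates 14 and 43. Eng, endoglin, a co-receptor for TGF-beta ligands, was at -0.01 (-0.21 to 0.19), and Robo4, a roundabout receptor of endothelium, at -0.0047 (-0.10 to 0.09).

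The 5 receptor tyrosine kinases of vessel growth and maturation lay close together in their differences, from -0.10 to 0.02. Kdr, the main signalling receptor for VEGF, was at 6.70, 6.83, 6.47, 6.64 and 6.47 in wild type and 6.73, 6.53, 6.50, 6.49 and 6.57 in Nkx2.2-/-. The highest mouse was wild-type replicate 15 and the groups overlapped throughout, with a difference of -0.06 (95% interval -0.23 to 0.11). Flt1, a VEGF receptor that also acts as a decoy, was at 5.60, 5.86, 5.81, 5.74 and 5.60 in wild type and 5.81, 5.77, 5.88, 5.55 and 5.61 in Nkx2.2-/- in the brightest of its 4 probe sets, a difference of 0.0036 (95% interval -0.16 to 0.17). The other 3 were at -0.02, 0.05 and 0.04. Flt4, the receptor for VEGF-C, was at -0.02 (-0.14 to 0.10), and at 0.04 in a dimmer probe set. Tek, the angiopoietin receptor Tie2, gave 5.88, 5.61, 5.61, 5.64 and 5.29 in wild type and 5.58, 5.60, 5.46, 5.71 and 5.79 in Nkx2.2-/-. The 2 highest mice were replicates 14 and 43, 1 of each genotype, and the difference was 0.02 (95% interval -0.20 to 0.24). Tie1, its partner receptor, was at -0.10 (-0.33 to 0.12).

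The 6 transporters were the one endothelial role in which most signs were higher in Nkx2.2-/-, in 4 of 6. Slco1a4, an organic anion transporter of brain endothelium, was at 5.76, 5.69, 5.66, 5.86 and 5.77 in wild type and 5.95, 5.89, 5.80, 5.95 and 5.86 in Nkx2.2-/-. The 3 highest mice were mutants, and all 5 mutants exceeded every wild-type mouse but replicate 18, which was level with replicate 43 and above replicate 22. Group means were 5.75 ± 0.0782 and 5.89 ± 0.0664 (SD, n = 5 per genotype), a log2 difference of 0.14 or 1.10-fold higher (SE 0.0485, limma unadjusted p = 0.015, adjusted p = 0.9997). Under the alternatives its difference stayed between 0.12 and 0.20, and its smallest limma adjusted p was 0.619. Slco1c1, a thyroid hormone and organic anion transporter that astrocytes and choroid plexus also make, was at 7.86, 7.0, 7.30, 7.39 and 7.21 in wild type and 7.51, 7.43, 7.23, 7.65 and 8.12 in Nkx2.2-/-. Replicates 14 and 43 were highest in their groups, and the difference of 0.23 (SE 0.179, limma unadjusted p = 0.218, adjusted p = 0.9997) was 0.10 without mutant 43, 0.36 without wild-type replicate 14 and 0.50 with the adult globin signal as a covariate. The 7 astrocyte markers, all measured, had list means of 9.05, 8.85, 9.05, 8.85 and 9.04 in wild type and 8.66, 8.97, 8.91, 9.15 and 9.22 in Nkx2.2-/-; their part in the Slco1c1 values was not tested.

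Slc2a1, the glucose transporter GLUT1, had one of the widest spreads of all members, at 7.39, 7.39, 7.37, 7.85 and 8.48 in wild type and 7.64, 7.49, 7.60, 7.90 and 7.93 in Nkx2.2-/-. Wild-type replicate 21 was far above the other wild-type mice, and the mutants overlapped the rest. Group means were 7.70 ± 0.482 and 7.71 ± 0.195 (SD, n = 5 per genotype), a difference of 0.02 (95% interval -0.43 to 0.46), which was 0.21 without wild-type replicate 21. All 3 of its probe sets had replicate 21 as the highest of the wild-type mice, and their differences were 0.05, 0.07 and 0.02. Mfsd2a, the lipid transporter that restrains transcytosis across the barrier, was at 6.82, 6.46, 6.29, 6.58 and 6.72 in wild type and 6.38, 6.42, 6.65, 6.84 and 6.98 in Nkx2.2-/-. Its 4 highest mice were replicates 14 and 21 of wild type and 29 and 43 of Nkx2.2-/-, of which 21, 29 and 43 were also the 3 highest for Slc2a1. The difference was 0.08 (95% interval -0.21 to 0.37). Abcb1a, the P-glycoprotein efflux pump, was at 5.71, 5.79, 5.50, 5.69 and 5.68 in wild type and 5.67, 5.68, 5.52, 5.86 and 5.60 in Nkx2.2-/-, with a difference of -0.01 (95% interval -0.16 to 0.14) and one of -0.07 in its dimmer probe set. Its probes were not checked against the paralog Abcb1b. Abcg2, another efflux pump, was at -0.01 (-0.20 to 0.19).

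The promoters of the 2 transporters that were high in the same mice were chosen after their values were seen and are shown because both hold ACGTG, the core of the element bound by hypoxia-inducible factors, in capitals. The windows are 300 bases, 250 before and 50 after the annotated start, from RefSeq on GRCm38.p6. The table held 26 of the 38 members. Cdh5, Esam, Higd1b, Myh11, Ndufa4l2, Nos3, Pecam1, Sox7, Sox17, Sox18, Tagln and Vwf had no entry.
Slc2a1 chr4:119108495-119108794 (+ strand): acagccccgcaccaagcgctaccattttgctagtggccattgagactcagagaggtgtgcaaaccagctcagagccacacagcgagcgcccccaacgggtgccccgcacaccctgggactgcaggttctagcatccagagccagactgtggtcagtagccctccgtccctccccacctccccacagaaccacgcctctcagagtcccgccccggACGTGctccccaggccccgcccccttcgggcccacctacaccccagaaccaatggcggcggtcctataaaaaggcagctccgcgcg
Mfsd2a chr4:122961139-122961438 (- strand): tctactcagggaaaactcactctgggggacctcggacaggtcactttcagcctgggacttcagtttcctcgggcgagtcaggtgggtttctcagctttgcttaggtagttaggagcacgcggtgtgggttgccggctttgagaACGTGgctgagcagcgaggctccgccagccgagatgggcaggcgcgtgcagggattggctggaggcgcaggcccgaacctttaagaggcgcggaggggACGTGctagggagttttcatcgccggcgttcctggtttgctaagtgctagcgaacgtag

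ACGTG begins at -36 from the start in Slc2a1 and at -107 and -9 in Mfsd2a. Searched on both strands, it was in windows of 4 of the 26 genes, the others being Slco1c1 and Cnn1, and in 19.6% of all 32851 promoter windows in the table. A match is a description of these letters and shows no binding.

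The 3 SoxF transcription factors, which specify endothelium and arteries, all had a lower sign in their brightest probe set. Sox17 was at 5.70, 5.70, 5.60, 5.87 and 5.82 in wild type and 5.46, 5.58, 5.43, 5.81 and 5.62 in Nkx2.2-/-. The lowest mice were mutants 22 and 11, and mutants 29 and 43 lay among the wild-type values, so the groups overlapped. Group means were 5.74 ± 0.106 and 5.58 ± 0.149 (SD, n = 5 per genotype) and the difference -0.16 (SE 0.0757, limma unadjusted p = 0.063, adjusted p = 0.9997), with -0.05 in the dimmer probe set. Sox18 was at -0.09 (95% interval -0.24 to 0.06) and Sox7 at -0.08 (-0.24 to 0.09). A dimmer Sox7 probe set had the opposite sign, at 0.11. Of the remaining endothelial genes, the shared Ly6c1 and Ly6c2 probe set, singled out after its values were seen, was at 6.91, 6.86, 6.76, 7.10 and 7.68 in wild type and 7.0, 6.98, 6.90, 7.12 and 7.19 in Nkx2.2-/-. Wild-type replicate 21 was highest, as it was for Slc2a1, and the difference of -0.02 was 0.13 without it. Egfl7, a factor secreted by endothelium, was at -0.10 (95% interval -0.25 to 0.05) and lower by sign in all 4 of its probe sets. Vwf, the von Willebrand clotting factor, was at 0.05 (-0.11 to 0.21), and Nos3, endothelial nitric oxide synthase, at -0.08 (-0.24 to 0.09).

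Of the 8 pericyte genes 6 were lower by sign, and Rgs5 had the largest difference of all members. Rgs5, a regulator of G protein signalling and a marker of pericytes, was at 7.79, 7.93, 7.84, 7.87 and 7.48 in wild type and 7.25, 7.64, 7.52, 7.46 and 7.07 in Nkx2.2-/-. Wild-type replicates 14, 15, 16 and 18 exceeded every mutant, while wild-type replicate 21 fell within the mutant range, below replicates 12 and 22. Group means were 7.78 ± 0.175 and 7.39 ± 0.226 (SD, n = 5 per genotype), a log2 difference of -0.39 or 1.31-fold lower (SE 0.113, 95% interval -0.64 to -0.14, limma unadjusted p = 0.00546, adjusted p = 0.9997). It did not pass the test over all probe sets. The other 3 Rgs5 probe sets were also lower, at -0.22, -0.17 and -0.11. That of -0.22 had a limma unadjusted p of 0.00483 and an adjusted p of 0.9997, and the other 2 were dim, with wild-type means of 4.77 and 4.70.

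Under the alternatives the difference of Rgs5 kept its sign, from -0.51 to -0.22, with limma adjusted p of at least 0.617. It was -0.31 without wild-type replicate 14 and mutant 43, -0.29 with the meningeal fibroblast mean as a covariate and -0.51 with the adult globin mean as a covariate, the last chosen after seeing the data. The value of -0.22 came from averaging its probe sets. Its promoter is shown as that of the member with the largest difference. The capitals mark AAACA, the core that forkhead factors such as Foxf2 of pericytes bind.
Rgs5 chr1:169655251-169655550 (+ strand): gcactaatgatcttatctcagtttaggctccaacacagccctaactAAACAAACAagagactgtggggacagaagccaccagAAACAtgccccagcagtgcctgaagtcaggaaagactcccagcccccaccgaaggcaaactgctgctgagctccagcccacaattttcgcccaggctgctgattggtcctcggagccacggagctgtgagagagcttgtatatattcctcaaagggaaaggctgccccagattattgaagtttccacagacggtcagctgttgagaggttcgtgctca

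AAACA begins at -204, -200 and -168 in Rgs5, the first 2 overlapping by 1 base. On either strand it is in windows of 15 of the 26 genes and in 50.5% of all windows, so its presence there is common.

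Vtn, vitronectin, a matrix glycoprotein that pericytes of the brain secrete, gave 7.75, 8.0, 7.71, 7.53 and 7.01 in wild type and 7.12, 7.89, 7.12, 7.66 and 7.28 in Nkx2.2-/-. Both groups covered nearly the same range, with replicates 15 and 12 highest and replicate 21 lowest. Group means were 7.60 ± 0.369 and 7.41 ± 0.342 (SD, n = 5 per genotype), a difference of -0.19 (SE 0.196, limma unadjusted p = 0.364, adjusted p = 0.9997), which ran from -0.33 without wild-type replicate 21 to 0.04 with the meningeal covariate. The second Vtn probe set was at -0.11 with replicates 15 and 12 again highest. Abcc9 and Kcnj8 encode the sulfonylurea receptor and the pore of the ATP-sensitive potassium channel of mural cells. Abcc9 was at 6.15, 5.71, 5.77, 6.01 and 5.90 in wild type and 5.74, 5.81, 5.52, 5.79 and 6.17 in Nkx2.2-/-, highest in replicates 14 and 43, with a difference of -0.10 (95% interval -0.36 to 0.15). Dimmer Abcc9 probe sets were at 0.06 and -0.00064. Kcnj8 was at 5.47, 5.41, 5.38, 5.48 and 5.13 in wild type and 5.30, 5.38, 5.20, 5.42 and 5.56 in Nkx2.2-/-, the groups overlapping, with a difference of -0.0012 (-0.18 to 0.18).

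Anpep, the aminopeptidase CD13 on the pericyte surface, was at 5.27, 5.34, 5.25, 5.26 and 5.17 in wild type and 5.21, 5.28, 5.24, 5.13 and 5.16 in Nkx2.2-/-. The mice were tightly grouped and overlapped, with a difference of -0.05 (SE 0.0426, limma unadjusted p = 0.242, adjusted p = 0.9997). Higd1b, a hypoxia-inducible domain family protein of pericytes, was at -0.03 (95% interval -0.16 to 0.09). Ndufa4l2, a mitochondrial protein induced by low oxygen, was at 5.33, 5.41, 5.42, 5.33 and 5.33 in wild type and 5.40, 5.39, 5.62, 5.37 and 5.12 in Nkx2.2-/-. Replicate 22 was highest and replicate 43 lowest, both mutants, around a difference of 0.01 (-0.15 to 0.18). Mcam, the adhesion molecule CD146 of mural cells and endothelium, was at 6.01, 5.94, 5.49, 5.74 and 5.46 in wild type and 5.45, 5.81, 5.74, 5.88 and 5.83 in Nkx2.2-/-, with a difference of 0.01 (-0.25 to 0.28) and both groups over nearly the same range.

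The 4 contractile genes of smooth muscle averaged 5.41, 5.47, 5.25, 4.92 and 4.99 in wild type and 5.03, 5.23, 5.19, 5.29 and 5.10 in Nkx2.2-/-. Wild-type replicates 14 and 15 were highest and 18 and 21 lowest of all mice, so the mutants lay inside the wild-type range. Acta2, smooth muscle alpha-actin, gave 6.70, 6.71, 6.26, 5.62 and 5.61 in wild type and 5.85, 6.30, 6.14, 6.31 and 6.14 in Nkx2.2-/-, a range of 2.14-fold over the 10 mice. Group means were 6.18 ± 0.545 and 6.15 ± 0.189 (SD, n = 5 per genotype), a difference of -0.03 (95% interval -0.53 to 0.46), and its sign changed in 7 of 22 alternatives, among them 0.10 without wild-type replicate 15. Without wild-type replicate 21 the difference was -0.18. Its 2 other probe sets were dim and differed by 0.02 and 0.03. Tagln, transgelin, an actin-binding protein of smooth muscle, was at 5.52, 5.73, 5.49, 5.07 and 5.29 in wild type and 5.20, 5.46, 5.39, 5.51 and 5.24 in Nkx2.2-/-. Wild-type mice 18 and 21 were again the lowest of their group and 15 the highest, and the difference was -0.06 (95% interval -0.30 to 0.19). Myh11, the heavy chain of smooth muscle myosin, was at -0.04 (-0.25 to 0.17), with 18 and 21 again the lowest wild-type mice, and at 0.08 in a dimmer probe set. Cnn1, calponin, was dim, at -0.02 (-0.10 to 0.05), and varied little between mice.

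The promoter of Acta2, the mural member of widest spread, is shown with CATTCC, the MCAT element bound by TEAD factors, in capitals. It lies on the other strand, so the capitals read GGAATG in the line given here.
Acta2 chr19:34255324-34255623 (- strand): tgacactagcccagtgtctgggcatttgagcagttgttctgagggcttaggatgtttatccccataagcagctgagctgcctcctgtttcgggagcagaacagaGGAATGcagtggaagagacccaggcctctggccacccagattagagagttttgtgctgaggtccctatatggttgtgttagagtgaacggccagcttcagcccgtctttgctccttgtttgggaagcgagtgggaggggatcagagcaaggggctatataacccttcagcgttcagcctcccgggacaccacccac

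The element begins at -146 and is in windows of 6 of the 26 genes and 14.7% of all windows. The CArG box of serum response factor was searched on both strands with its exact consensus, CC, then A or T only, then GG. It was in 0 of the members' windows and in 1.63% of all windows. Near matches were not counted. The Acta2 window above holds ccctatatgg and ccttgtttgg, each with a single C or G between the CC and the GG. No match therefore says only that the exact consensus is not in these 300 bases.

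**Figure D3:**
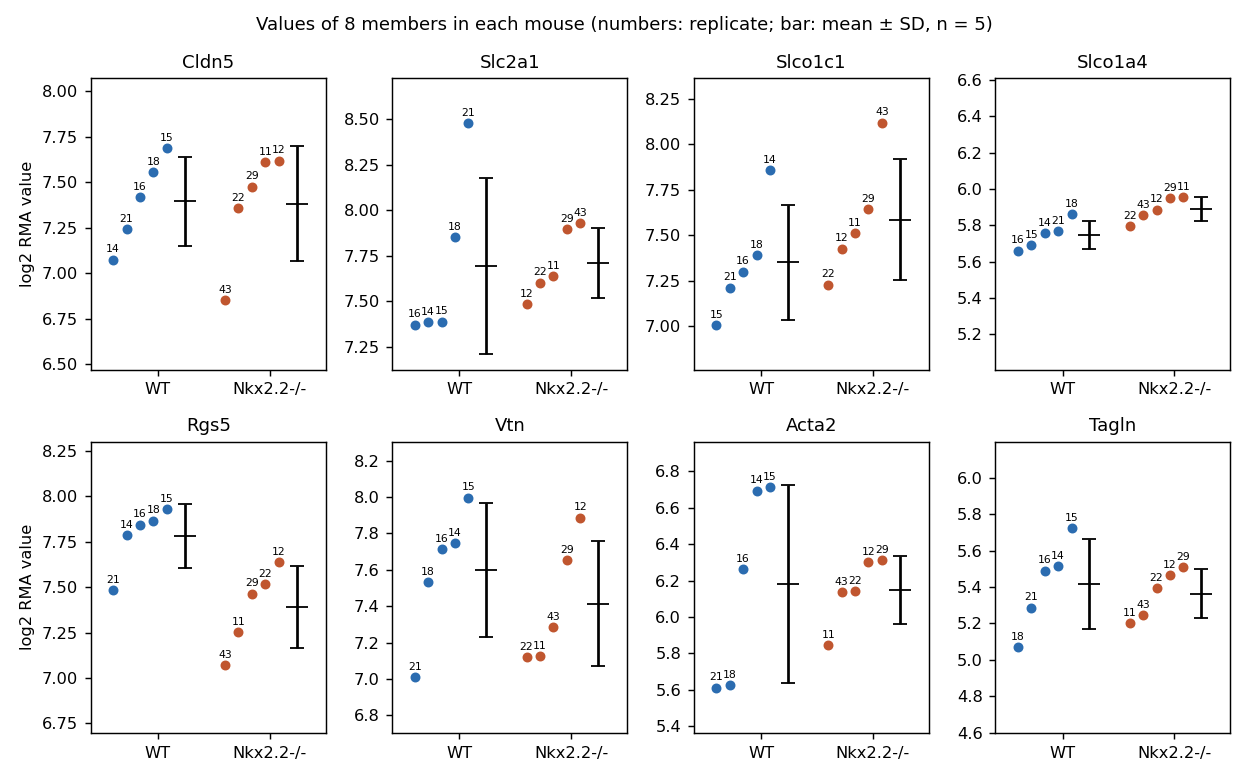
Log2 RMA values of Cldn5, Slc2a1, Slco1c1, Slco1a4, Rgs5, Vtn, Acta2 and Tagln (y axis) in each wild-type and Nkx2.2-/- mouse (x axis); numbers are replicates and the bar is the mean ± SD of 5 mice, on axes of equal log2 span. Rgs5 is the panel with 4 of 5 wild-type mice above every mutant, and Slco1a4 the one with 4 of 5 below every mutant. Acta2 shows wild-type replicates 18 and 21 lowest, at 5.62 and 5.61.

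Some mice stood high or low in many members at once. Wild-type replicate 15 was the highest wild-type mouse for 11 of 26 endothelial and 6 of 12 mural genes, where it was highest for 15.4% of all genes. Wild-type replicate 21 was the lowest wild-type mouse for 6 of 12 mural genes, against 23.4% of all genes. For the endothelium, wild-type replicate 16 was lowest of its group for 11 of 26 genes, 42.3%, against 28.1% of all genes. Among the mutants, replicate 22 was lowest for 10 of 26 endothelial genes, 38.5%, against 27.2% of all genes. The median SD within a group was 0.130 for the endothelial genes and 0.183 for the mural genes, against 0.109 for all genes. On the arrays of low 5 prime Gapdh signal, both replicates 14 and 43 were the highest of their groups for 6 members (Pecam1, Tek, Slco1c1, Abcg2, Mfsd2a and Abcc9) and both lowest for 5 (Cldn5, Tie1, Emcn, Eng and Nos3). These are 15.8% and 13.2% of the members, where 18.5% and 11% of all genes did so.

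**Figure D4:**
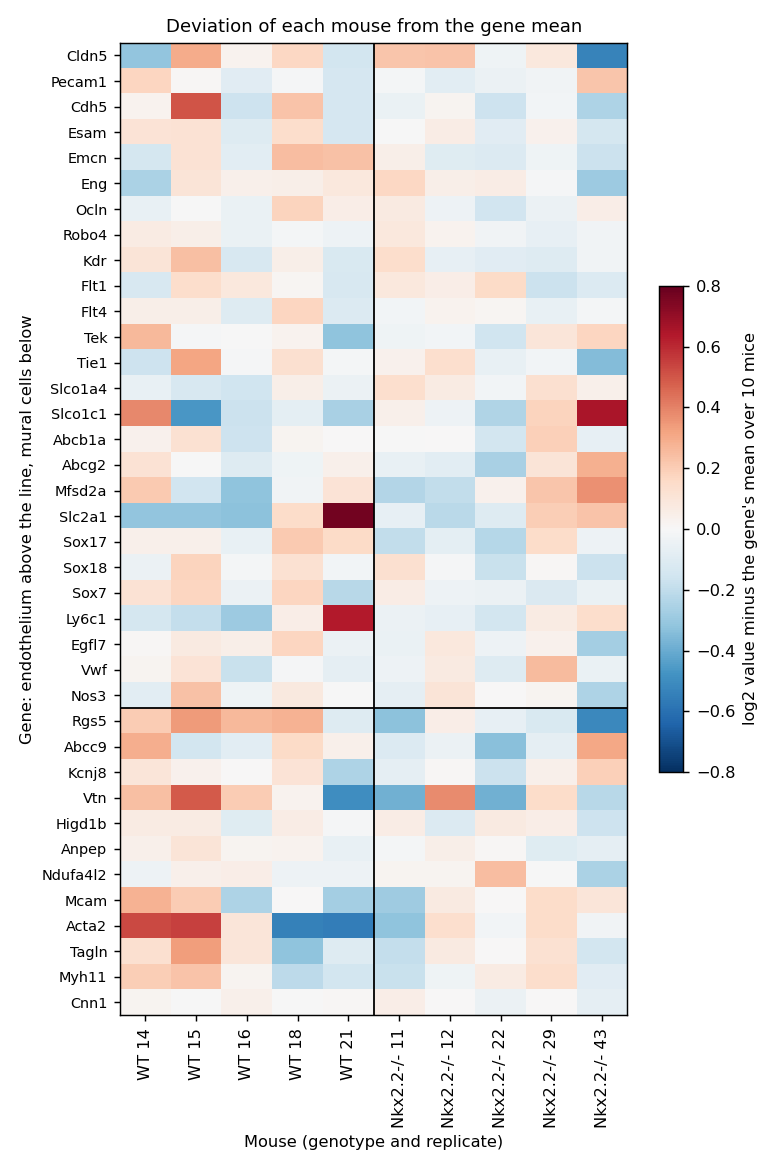
Deviation of each mouse (x axis, wild type left of the line) from the mean of each gene over the 10 mice (y axis, endothelium above the line and mural cells below), as a log2 value in colour. The darkest cells are single mice, such as Slc2a1 and Ly6c1 in wild-type replicate 21 and Acta2 in wild-type replicates 14, 15, 18 and 21, and not whole genotypes. Rgs5 and Slco1a4 are the rows closest to a split at the line, in opposite directions. Only wild-type replicate 21 breaks it for Rgs5 and only wild-type replicate 18 for Slco1a4.

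Markers of other cells were read beside this variation. The 15 meningeal fibroblast markers, all measured, averaged 6.69, 7.28, 6.56, 6.85 and 6.13 in wild type and 6.29, 6.70, 6.33, 6.61 and 6.40 in Nkx2.2-/-. By sign 14 of 15 were lower, with a median of -0.21. Wild-type replicate 15 was highest and 21 lowest, and mutant 11 was next to lowest, the positions they also held for the mean of the 12 mural genes. Other mice did not keep their place. Wild-type replicate 18 was next to highest for the meningeal markers, at 6.85. For the mural genes it was below the wild-type mean, at 5.67 against 5.75, and for the contractile genes it was lowest of all mice, at 4.92. On the linear scale the summed level of these markers was 2399.9 to 6379.7 in wild type and 2837 to 4699.6 in Nkx2.2-/-. With the meningeal mean as a covariate the median difference of the mural genes was 0.02, with 5 of 12 lower by sign, and that of the endothelial genes -0.0036, with 14 of 26 lower; 0 member probe sets passed. Without wild-type replicate 15 the mural median was -0.0077 with 6 of 12 lower, and without wild-type replicate 21 it was -0.08 with 11 of 12 lower. Without wild-type replicate 14 and mutant 43 it was -0.0037 with 7 of 12 lower. Of all genes, 50.8% were lower by sign with the meningeal covariate. That share was 54.1% without wild-type replicate 15, 53.1% without wild-type replicate 21 and 52.9% without wild-type replicate 14 and mutant 43. The part of meningeal tissue in the mural values was not tested further.

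Adult globin transcripts, a sign of blood left in the vessels, were read by 4 probe sets that each name several globin genes. Their mean was 8.41, 7.24, 6.81, 7.92 and 7.82 in wild type and 7.31, 6.84, 6.71, 7.07 and 7.33 in Nkx2.2-/-. Wild-type replicates 14, 18 and 21 were above every mutant, and replicates 15 and 16 within the mutant range. The log2 differences of the 4 probe sets ran from -0.80 to -0.30 (limma unadjusted p from 0.0371 to 0.0855, adjusted p = 0.9997). This covariate therefore goes in part with genotype, which limits every value adjusted for it. With the adult globin mean as a covariate, a choice made after seeing the data, the endothelial median was -0.0027 with 13 of 26 lower and the mural median -0.07 with 9 of 12 lower, and 0 member probe sets passed. Of all genes, 46.1% were lower by sign with this covariate. The 6 measured of 11 listed red cell markers with a probe set of their own were dim, with list means from 4.67 to 4.75 and a summed linear level of 156 to 161 in wild type and 154 to 162 in Nkx2.2-/-. The 9 measured of 10 microglial markers had a summed level of 944 to 1141 in wild type and 837 to 1032 in Nkx2.2-/-, the 7 measured of 8 choroid plexus markers one of 854 to 6685 in wild type and 337 to 7210.4 in Nkx2.2-/-, and the 7 skeletal muscle markers one of 209.9 to 237 in wild type and 213 to 299 in Nkx2.2-/-. The 7 measured of 8 proliferation markers averaged 5.71, 5.73, 5.66, 6.33 and 5.71 in wild type and 5.80, 5.31, 5.22, 5.17 and 5.20 in Nkx2.2-/-, with a summed level of 372 to 617 in wild type and 258 to 416 in Nkx2.2-/-. All 7 were lower by sign, with a median of -0.56, and 5 had a limma unadjusted p under 0.05 (adjusted p = 0.9997). The 4 lowest mice were mutants, while mutant 11 lay above every wild-type mouse but replicate 18. RMA lists no gene at 0. Beyond the covariates given, the part of these cells in the members' values was not tested.

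Genes that act with the members were read from 4 further lists, in each of which 0 genes rose or fell over all probe sets (limma, Benjamini-Hochberg). Of 26 genes of vessel signalling, 21 were lower by sign with a median of -0.08. Those of lowest p were Aplnr, the apelin receptor of growing vessels, at -0.42 (limma unadjusted p = 0.0554, adjusted p = 0.9997), and Dll4, the Notch ligand of sprouting tip cells, at 0.10 (limma unadjusted p = 0.0708, adjusted p = 0.9997). The ligands of the members Kdr, Flt4 and Tek were among them, with Vegfa at -0.18, Vegfc at -0.14 and Angpt1 at -0.09. Of 28 measured of 29 genes of the barrier and its Wnt signal, 16 were lower and 12 higher by sign with a median of -0.02. Fzd4, a Wnt and norrin receptor, was at -0.06 and Foxf2, a pericyte transcription factor, at -0.06, the lowest p of that list (limma unadjusted p = 0.195 and 0.234, adjusted p = 0.9997). The ligands Wnt7a and Wnt7b were at 0.02 and 0.01, and the Wnt target Apcdd1 at -0.06.

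Of 22 measured of 23 other mural genes, 13 were lower and 9 higher by sign with a median of -0.02. Cald1, caldesmon, which regulates actomyosin, was at -0.30 and S1pr3, a sphingosine phosphate receptor, at -0.21 (limma unadjusted p = 0.0387 and 0.0475, adjusted p = 0.9997). Pdgfrb, the receptor through which endothelial Pdgfb recruits pericytes, was at -0.19 (limma unadjusted p = 0.0894, adjusted p = 0.9997), and Pdgfb at -0.09. Other genes of this mural list did not share such a difference, with Notch3 at -0.03, Cspg4 at 0.04 and Des at 0.04. Of 15 basement membrane genes, 12 were lower by sign with a median of -0.13. Col4a1, a collagen IV chain of the vessel wall, was at -0.28 and Lamb1, a laminin chain, at -0.21 (limma unadjusted p = 0.0368 and 0.0459, adjusted p = 0.9997). Their list mean was highest in wild-type replicate 15, as the meningeal and mural means were.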

How the data were processed

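Expression was measured on 1 array per mouse in 5 wild-type and 5 Nkx2.2-/- mice, grouped by sample title. The deposited values are log2 RMA expression values, 1 per probe set and array, per the submitters' processing notes, which give no RMA version. RMA draws arrays to 1 distribution and compresses differences between dim probe sets. The number of arrays limits the precision.

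The arrays hold 45101 probe sets, of which 64 controls were dropped. The platform annotation gives 34945 of the rest 1 gene, 932 several and 9160 none. The 45037 kept went into 1 limma model (version 3.58.1, R 4.3.3, moderated by eBayes) with genotype as its only term, and calls were made at a Benjamini-Hochberg adjusted p of 0.05 over all of them. For lists, a gene stood by its probe set of highest mean among those naming 1 gene (the shared probe set for Ly6c1). All 38 members matched RefSeq by Entrez number. Litters of single mice are not given, so the model treats the mice as independent and takes no account of what littermates share. Python 3.11.15 with pandas 2.3.3 made the tables and matplotlib 3.10.9 the plots. The fit was tested on simulated data.

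Members and lists were chosen with earlier results of these data known, so lists carry no test. Given by mouse were 16 members fixed by name (Cldn5, Pecam1, Cdh5, Kdr, Flt1, Tek, Slc2a1, Abcb1a, Sox17, Rgs5, Kcnj8, Abcc9, Vtn, Acta2, Tagln and Anpep) and, in each of endothelium and mural cells, those among the 3 of lowest p or of largest difference in a direction. Ly6c1 was given by mouse after its values were seen. The related lists gave the 2 genes of lowest p. Other related genes were named for their role after their values were seen. Alternatives were other scalings, a filter on dim probe sets, gene-level units, other priors, array weights, covariates and leaving out arrays.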

Additional observations from a re-analysis of the deposited data

Results flagged for a closer look

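Among 80 groups of 5 mice examined, the 38 members and the 2 list means in each genotype, 2 held a mouse set apart from the rest by a gap of over 0.71 of the group's range. Chance gives about 1 in 20 such groups, so 2 of 80 is not many. Pecam1 was highest in Nkx2.2-/- replicate 43, at 5.14 against 4.91 for the next mouse, a gap of 0.772 of the range. Eng was lowest in wild-type replicate 14, at 5.84 against 6.13 for the next, a gap of 0.826. Both arrays are those of low 5 prime Gapdh signal, whose part in these values was not tested.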

How the results depend on the processing

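No member probe set passed under any of the 22 refits (limma), where the smallest adjusted p was 0.537, with array weights. At an unadjusted limma p under 0.05 there were 3 in the main model and 2 to 7 in the refits. With 1 probe set per gene it was 2 of 37, where 587 of 18193 genes had such a p. It was 7 without wild-type replicate 14 and with the adult globin covariate, where 1860 and 1878 of 45037 probe sets did. With array weights it was 5, where 3258 of them did. Over all probe sets 23 were called; testing 1 probe set per gene called 11 and averaging probe sets by gene 12, both over fewer features, and 1545 had an unadjusted p under 0.05. The endothelial median ran from -0.06 to 0.01 over 24 settings and was above 0 in 1, quantile normalization. The mural median ran from -0.08 to 0.02 and was above 0 in 1, the meningeal covariate. The list means of single mice ranged over 0.18 for the endothelium and 0.35 for the mural genes, a spread of levels and not of differences. None of 830 member values under the refits was called. Of them 118 had another sign than the main value, in 25 of 38 members, so small differences have no settled direction. Ly6c1 could not be fitted at the gene level, and Pecam1, Tie1, Myh11 and Cnn1 were left out with the dim probe sets. No paired analysis was possible because the labels do not say which mice share a litter.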
